A study of Homo sapiens with 12 samples.

Results

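The genes described here are 9 secreted acute phase and complement proteins, SAA1, SAA2, LCN2, HP, CP, C3, CFB, SERPINA1 and SERPINA3, out of 58735 genes in the count table. They were taken by gene name, and the list was chosen from their levels and changes in these same 4 groups. Their values below are therefore a description and carry no p-value. The study used A549 cells, a human lung adenocarcinoma line, that stably carried a short hairpin RNA (shRNA). There were 4 groups of 3 libraries: shFXR cells collected 3 days after ionizing radiation, shFXR cells after sham irradiation, shControl cells collected 3 days after ionizing radiation, and shControl cells after sham irradiation. The question, per the design text, was how lowering FXR alters the response to radiation. All 4 groups share the A549 background and a stable hairpin, and the labels mark the shControl genotype as WT. The sources used here do not give the radiation dose, the harvest time of the sham cells, the number of hairpins, or whether each line is a pool or 1 clone.

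Acute phase proteins are plasma and mucosal proteins that liver and barrier epithelia make in larger amounts during inflammation. Their genes are classically switched on by IL6, which acts through STAT3 and C/EBP factors, and by IL1 and TNF, which act through NF-kB. Complement is a cascade of plasma proteases that deposits C3 fragments on surfaces, and the serpins described here block proteases released by neutrophils. NR1H4, which encodes the bile acid-sensing nuclear receptor known as farnesoid X receptor, was taken to be FXR, since the labels do not spell the abbreviation out.

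SAA1 and SAA2 encode the acute phase serum amyloid A apolipoproteins and lie on chromosome 11, at chr11:18266174-18269977 on the plus strand and chr11:18239223-18248643 on the minus strand (hg38). Their coding sequences were compared because reads from one gene can be counted for the other. In the GENCODE 29 transcripts, both coding sequences had 366 bases, of which 355 (97.0%) were identical, and the longest identical run was 186 bases. The stretch that holds 10 of the 11 differing bases, coding positions 144 to 323, is given 5′ to 3′ with the differing bases in capitals.
SAA1: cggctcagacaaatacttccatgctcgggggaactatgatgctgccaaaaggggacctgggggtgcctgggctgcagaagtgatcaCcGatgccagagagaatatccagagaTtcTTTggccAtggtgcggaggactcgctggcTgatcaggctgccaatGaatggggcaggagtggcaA
SAA2: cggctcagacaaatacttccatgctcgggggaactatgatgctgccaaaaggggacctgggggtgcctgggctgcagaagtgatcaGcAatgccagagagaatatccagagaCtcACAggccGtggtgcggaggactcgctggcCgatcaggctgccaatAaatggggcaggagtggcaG
Coding reads that cover no differing base match both genes, so the split between SAA1 and SAA2 is uncertain for them. The other exon bases were not compared.

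The RefSeq promoter table for GRCh38.p14 spans 250 bases before to 50 bases after a start site and held 4 of the 9 genes, LCN2, CFB, SERPINA1 and SERPINA3. LCN2 and CFB, the 2 of these 4 with an NF-kB match, are given as the plus strand at chr9:128149203-128149502 and chr6:31945845-31946144, 5′ to 3′, with motif matches in capitals.
LCN2: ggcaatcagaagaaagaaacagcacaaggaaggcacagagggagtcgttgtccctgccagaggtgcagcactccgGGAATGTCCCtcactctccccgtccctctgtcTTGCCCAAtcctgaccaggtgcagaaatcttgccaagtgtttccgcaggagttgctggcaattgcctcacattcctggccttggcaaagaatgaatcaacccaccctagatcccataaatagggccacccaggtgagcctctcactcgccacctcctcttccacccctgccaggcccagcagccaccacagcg
CFB: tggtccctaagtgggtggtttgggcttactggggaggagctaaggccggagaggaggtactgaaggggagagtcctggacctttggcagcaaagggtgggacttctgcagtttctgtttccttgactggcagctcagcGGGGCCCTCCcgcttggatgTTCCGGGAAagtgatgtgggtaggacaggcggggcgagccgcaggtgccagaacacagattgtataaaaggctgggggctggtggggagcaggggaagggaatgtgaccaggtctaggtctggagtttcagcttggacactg
Motifs were searched on both strands: the decameric NF-kB consensus, C/EBP as TTNNGNAA and STAT as TTCNNNGAA. LCN2 held an NF-kB match (GGAATGTCCC, minus strand) from position -175 relative to the start site. It also held a C/EBP match (TTGCCCAA, minus strand) from position -143, and both are printed in plus-strand letters. CFB held an NF-kB match (GGGGCCCTCC) from position -112 and a STAT match (TTCCGGGAA) from position -92, and none of these matches overlapped another. SERPINA3 held a C/EBP match from position -63. SERPINA1 had a C/EBP match from position -202 at 1 of its 2 start sites, and no match at the other. Among all 35116 promoters in the table, 11.3% held the NF-kB motif, 36.8% the C/EBP motif and 7.66% the STAT motif. A match describes letters in the window and not a bound site.

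The libraries held 17140918 to 19036159 counts each. Levels are given as CPM, in which a gene's counts are set against the TMM-scaled total of its library. Changes are log2 ratios with their standard error (SE), from edgeR's quasi-likelihood model over all 12 libraries. A gene was called at a Benjamini-Hochberg adjusted p under 0.05 over the 16053 genes tested. All 9 genes passed the filter on low counts, but HP, CFB and SERPINA3 passed it only through the shControl libraries, where they are higher. SAA2 and SERPINA1 had few counts in shFXR cells but also passed it in a fit of the shFXR groups alone. NR1H4 averaged 3.00 ± 0.136 CPM in irradiated shFXR cells, 4.15 ± 1.19 CPM in sham shFXR cells, 24.8 ± 3.81 CPM in irradiated shControl cells and 23.6 ± 1.52 CPM in sham shControl cells (SD, n = 3 each). It was 8.26-fold lower in shFXR than in shControl cells after radiation and 5.68-fold lower after sham treatment (edgeR's quasi-likelihood test, adjusted p = 2.9e-11 and 2.8e-10).

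The cells were checked against marker genes of A549's own and of other cell types. All 5 epithelial markers averaged at least 1 CPM in every group, and their summed level was 2450 to 2650 CPM in irradiated shFXR, 2600 to 3460 CPM in sham shFXR, 7240 to 8540 CPM in irradiated shControl and 5160 to 7510 CPM in sham shControl libraries. Of 5 airway secretory markers, 2 reached 1 CPM, and their sum was 5.29 to 9.01 and 5.79 to 11 CPM in irradiated and sham shFXR libraries, against 87.1 to 187 and 124 to 257 CPM in irradiated and sham shControl libraries; SCGB1A1 and SCGB3A1 were at 0 in all but the irradiated shControl group. Of 5 neutrophil markers, 2 or 3 reached 1 CPM, with sums of 1.76 to 3.71 and 2.48 to 3.45 CPM in irradiated and sham shFXR libraries, against 32.7 to 66.3 and 40.2 to 76.6 CPM in irradiated and sham shControl libraries, and MPO was at 0 throughout. Of 6 hepatocyte markers, 1 reached 1 CPM, the sums were 52.8 to 57.6 and 58.4 to 71.9 CPM in irradiated and sham shFXR libraries, against 83.3 to 85.7 and 85.8 to 95.7 CPM in irradiated and sham shControl libraries, and APOC3 was at 0 throughout. Of 6 leukocyte markers, 2 reached 1 CPM, with sums of 12 to 22.6 CPM over shFXR and 23.4 to 56.8 CPM over shControl libraries, and CD3E was at 0 throughout. Of 5 type II alveolar markers, 2 in both shFXR and 3 in both shControl groups reached 1 CPM, with sums of 106 to 111 and 87.1 to 97.7 CPM in irradiated and sham shFXR libraries, against 77.4 to 92.7 and 83.8 to 90.9 CPM in irradiated and sham shControl libraries. Fibroblast marker sums were 27.2 to 41.9 CPM over shFXR and 16.4 to 24.6 CPM over shControl libraries, and endothelial sums did not exceed 3.64 CPM. The epithelial, secretory, neutrophil, hepatocyte and leukocyte sums were lower in shFXR cells, as most of the 9 genes were, and the type II and fibroblast sums were not. A sum can hide single markers. The neutrophil marker ELANE averaged 1.39 ± 0.637 CPM in irradiated and 1.48 ± 0.393 CPM in sham shFXR cells. In shControl cells ELANE averaged 0.607 ± 0.285 CPM after radiation and 1.42 ± 0.369 CPM after sham treatment, so it was not lower in shFXR cells. The single values of the other markers are not reported here. The part of the marker genes in the results below was not tested. In bulk RNA, fewer cells that express a gene and less RNA per cell cannot be told apart.

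**Figure D1:**
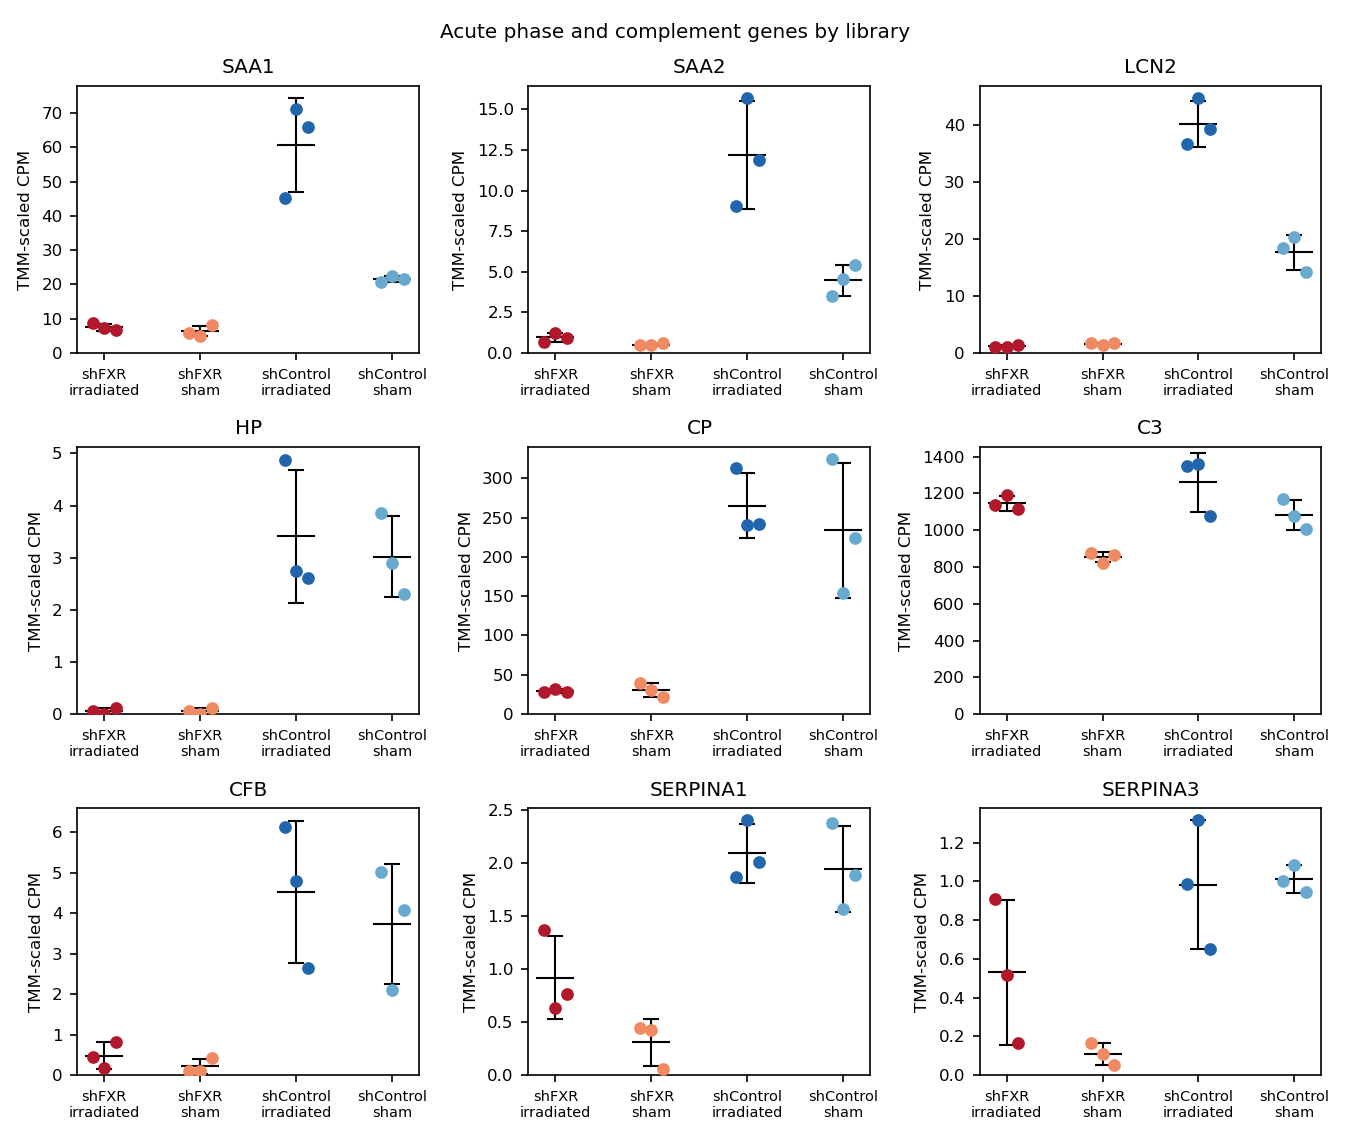
TMM-scaled CPM (y axis, linear from 0) of the 9 genes in each of the 12 libraries, with irradiated shFXR, sham shFXR, irradiated shControl and sham shControl cells from left to right. Points are libraries, long bars the group mean and whiskers ± 1 SD (n = 3). SAA1, SAA2, LCN2, HP, CFB, CP and SERPINA1 lie lower in all 6 shFXR libraries than in any shControl library, while C3 stays between 824 and 1359 CPM throughout.

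Of the 9 genes, 7 were called lower in shFXR than in shControl cells after radiation (not C3 and SERPINA3), and all 9 after sham treatment. Of all tested genes, 40.8% were called for the knockdown in irradiated cells and 37.4% in sham cells. The 9 genes were chosen from these contrasts, so nothing is read from their counts. Their median log2 fold change was -3.17 in irradiated and -3.08 in sham cells, beside 0.00 and -0.01 over all tested genes. Over all genes the sham comparison called 2885 higher and 3118 lower, and 3820 higher and 2465 lower when libraries were scaled by their totals alone. With that scaling the 9 genes were called lower in sham cells too. The 2 knockdown comparisons use different libraries, and each shares 1 group of libraries with each radiation comparison.

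The serum amyloids combined a low level in shFXR cells with a radiation response in shControl cells. SAA1 was at 8.70, 7.17 and 6.70 CPM in the irradiated and 5.97, 5.10 and 8.09 CPM in the sham shFXR libraries. It was at 45.2, 71.1 and 65.8 CPM in the irradiated and 20.8, 22.5 and 21.5 CPM in the sham shControl libraries. The irradiated shControl libraries thus stood above all others, and the shFXR groups overlapped each other. SAA1 was 8.07-fold lower in irradiated shFXR than in irradiated shControl cells (log2 -3.01 ± 0.16). Between the sham groups it was 3.38-fold lower in shFXR cells (log2 -1.76 ± 0.17). Radiation raised it 2.81-fold in shControl cells (log2 1.49 ± 0.14), against a log2 value of 0.24 ± 0.19 in shFXR cells.

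SAA2 was counted 12, 22 and 17 times in the irradiated and 9, 9 and 11 times in the sham shFXR libraries. It was counted 165, 274 and 219 times in the irradiated and 66, 75 and 103 times in the sham shControl libraries. No pair of neighbouring groups overlapped in CPM, and the order from high to low was irradiated shControl, sham shControl, irradiated shFXR and sham shFXR. SAA2 averaged 0.957 ± 0.291 CPM in irradiated shFXR, 0.523 ± 0.0619 CPM in sham shFXR, 12.2 ± 3.32 CPM in irradiated shControl and 4.47 ± 0.962 CPM in sham shControl cells. Radiation raised it 2.72-fold in shControl cells (log2 1.45 ± 0.21), while the log2 value in shFXR cells was 0.86 ± 0.39 and was not called. It was 12.7-fold lower in irradiated shFXR than in irradiated shControl cells and 8.45-fold lower between the sham groups. There were 5.68 to 12.8 SAA1 counts per SAA2 count in the irradiated and 10.7 to 13.6 in the sham shFXR libraries. The ratio was 4.54 to 5.54 in the irradiated and 3.97 to 5.98 in the sham shControl libraries. SAA1 thus took a larger part of the summed counts in most shFXR libraries, as far as the reads of both genes could be told apart.

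LCN2, lipocalin 2, sequesters the iron-binding siderophores of bacteria and is a marker of inflamed epithelium. It was at 1.14, 0.975 and 1.47 CPM in the irradiated and 1.77, 1.49 and 1.73 CPM in the sham shFXR libraries. It was at 36.8, 44.7 and 39.3 CPM in the irradiated and 18.5, 20.35 and 14.3 CPM in the sham shControl libraries. No groups overlapped, and the irradiated libraries were the higher ones in shControl cells and the lower ones in shFXR cells. Radiation raised LCN2 2.28-fold in shControl cells (log2 1.19 ± 0.12), whereas the log2 value in shFXR cells was -0.47 ± 0.25 and was not called. LCN2 was 33.4-fold lower in irradiated shFXR than in irradiated shControl cells and 10.6-fold lower between the sham groups. These were log2 values of -5.06 ± 0.17 and -3.41 ± 0.17.

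Among the 9 genes, 3 were called higher after radiation in shControl cells, namely SAA1, SAA2 and LCN2, where 10.0% of all tested genes were called. They were also the 3 whose irradiated libraries all lay above the sham libraries. The share of all tested genes separated in this way was not counted. The difference between the radiation responses, in which 15.0% of all tested genes were called, was negative and called for SAA1 (log2 -1.25 ± 0.24) and LCN2 (log2 -1.66 ± 0.28). It was -0.58 ± 0.46 for SAA2. Both contrasts were among those that chose the genes, and nothing is read from the counts.

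**Figure D2:**
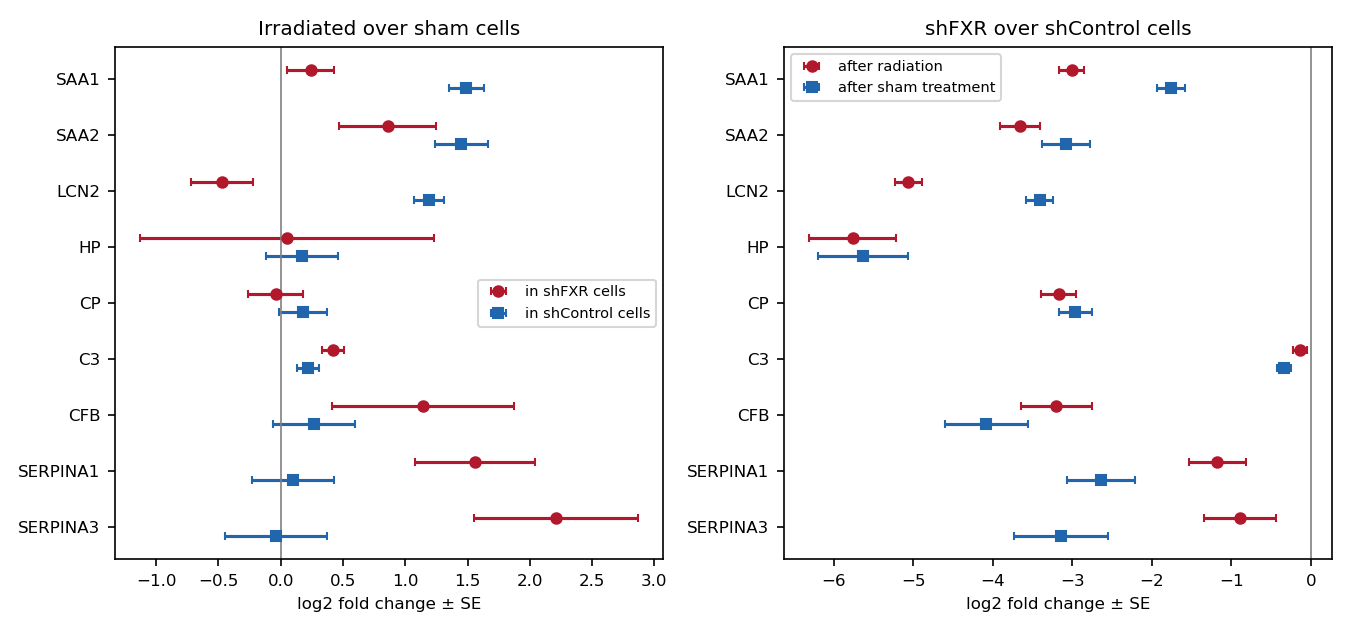
Log2 fold changes (x axis) ± SE of the 9 genes, with radiation over sham on the left (circles shFXR, squares shControl) and shFXR over shControl on the right (circles after radiation, squares after sham treatment). On the left SAA1 and LCN2 stand at 1.49 and 1.19 in shControl cells, against 0.24 and -0.47 in shFXR cells; on the right every value is below 0, from -0.14 for C3 after radiation to -5.76 for HP after radiation.

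HP, haptoglobin, captures free haemoglobin in plasma. It was counted 1, 0 and 2 times in the irradiated and 1, 0 and 2 times in the sham shFXR libraries. It was counted 89, 48 and 48 times in the irradiated and 73, 48 and 44 times in the sham shControl libraries. HP thus had 3 counts in each shFXR group, and its treatments overlapped within both lines. Summed over libraries and scaled to depth, HP in shFXR cells was 1.65% of its level in shControl cells after radiation (95% exact interval 0.336 to 4.89%, 3 against 185 counts). After sham treatment it was 1.79% (0.365 to 5.32%, 3 against 165 counts). These and the intervals below cover counting error only.

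CP, ceruloplasmin, carries copper and oxidizes iron so that it can be loaded onto transferrin. It was at 28.1, 32.2 and 27.9 CPM in the irradiated and 38.95, 30.2 and 21.3 CPM in the sham shFXR libraries. It was at 313, 241 and 242 CPM in the irradiated and 325, 154 and 224 CPM in the sham shControl libraries. The lines did not overlap, while within each line the irradiated and sham libraries did. CP was 9.02-fold lower in irradiated shFXR than in irradiated shControl cells (log2 -3.17 ± 0.22) and 7.77-fold lower between the sham groups (log2 -2.96 ± 0.21). Radiation gave -0.04 ± 0.22 in shFXR and 0.18 ± 0.19 in shControl cells, and neither was called. Of the exon bases of CP, 19.4% are shared with HPS3 on the opposite strand, and the sources used here do not say whether counting used the strand. HPS3 averaged 48.1 ± 3.14 and 50 ± 3.19 CPM in irradiated and sham shFXR cells, against 40.8 ± 2.43 and 38.4 ± 7.13 CPM in irradiated and sham shControl cells. HPS3 was higher in sham shFXR than in sham shControl cells (edgeR's quasi-likelihood test, log2 0.38 ± 0.11, adjusted p = 0.0084). Between the irradiated groups its log2 value was 0.24 ± 0.11 and was not called. Whether reads of HPS3 were counted for CP was not tested.

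C3, the component on which all complement pathways converge, had the highest level per kilobase of the 9 genes in every group. It was at 1138, 1193 and 1113 CPM in the irradiated and 877, 824 and 866 CPM in the sham shFXR libraries. It was at 1351, 1359 and 1077 CPM in the irradiated and 1170, 1075 and 1004 CPM in the sham shControl libraries. The sham shFXR libraries were the lowest of all and the other 3 groups overlapped. C3 was 1.34-fold higher in irradiated than in sham shFXR cells (log2 0.42 ± 0.09), and in shControl cells the log2 value was 0.22 ± 0.09 and was not called. The knockdown gave a 1.27-fold lower level in sham cells (log2 -0.34 ± 0.09) and a log2 value of -0.14 ± 0.09 in irradiated cells. Without irradiated shControl replicate 3, the lowest of its group, C3 was also called lower in irradiated shFXR than in irradiated shControl cells (log2 -0.24) and higher in irradiated than in sham shControl cells (log2 0.32).

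CFB encodes complement factor B, the protease that joins C3b in the convertase of the alternative pathway. CFB was counted 8, 3 and 15 times in the irradiated and 2, 2 and 8 times in the sham shFXR libraries. It was counted 112, 84 and 49 times in the irradiated and 95, 35 and 78 times in the sham shControl libraries. The lines stood apart, and the treatments overlapped within each line. CFB in shFXR cells was 10.8% of its level in shControl cells after radiation (95% exact interval 6.90 to 16.2%, 26 against 245 counts) and 5.68% after sham treatment (2.89 to 10.1%, 12 against 208 counts). C3 and CFB are partners in 1 enzyme, and in sham cells their log2 values were -0.34 ± 0.09 and -4.08 ± 0.52. CFB shares 45.0% of its exon bases with the readthrough gene AL645922.1, which had 0 counts, and 23 bases with C2.

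SERPINA1 encodes alpha-1-antitrypsin, the main inhibitor of neutrophil elastase. It was counted 24, 11 and 14 times in the irradiated and 8, 8 and 1 times in the sham shFXR libraries. It was counted 34, 42 and 37 times in the irradiated and 45, 26 and 36 times in the sham shControl libraries. Sham shFXR libraries were lowest, irradiated shFXR libraries lay between, and both shControl groups were higher and overlapped each other. In shFXR cells radiation raised SERPINA1 2.95-fold (log2 1.56 ± 0.48), against a log2 value of 0.10 ± 0.33 in shControl cells. SERPINA1 in shFXR cells was 44.0% of its level in shControl cells after radiation (95% exact interval 30.8 to 62.1%, 49 against 113 counts) and 15.6% after sham treatment (8.78 to 26.2%, 17 against 107 counts). The call after radiation was lost without irradiated shControl replicate 2 (log2 -1.07), irradiated shFXR replicate 2 (log2 -0.97) or irradiated shFXR replicate 3 (log2 -1.06).

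SERPINA3 encodes alpha-1-antichymotrypsin, which inhibits cathepsin G and mast cell chymase. It was counted 16, 9 and 3 times in the irradiated and 3, 2 and 1 times in the sham shFXR libraries. It was counted 18, 23 and 12 times in the irradiated and 19, 18 and 18 times in the sham shControl libraries. Radiation gave a log2 value of 2.21 ± 0.66 in shFXR cells and -0.04 ± 0.41 in shControl cells. The groups overlapped in shFXR cells, since the lowest irradiated library, at 0.164 CPM, lay just under the highest sham library, at 0.166 CPM. The shFXR value was called in the fit over all libraries, where SERPINA3 passed the filter through its shControl counts. In a fit of the shFXR groups alone it did not pass the filter and was not tested. SERPINA3 in shFXR cells was 53.6% of its level in shControl cells after radiation (95% exact interval 32.7 to 86.3%, 28 against 53 counts) and 10.7% after sham treatment (3.78 to 24.9%, 6 against 55 counts). These intervals leave out the spread between libraries, and the irradiated shFXR and irradiated shControl libraries overlapped. In the model over libraries, the knockdown in irradiated cells gave a log2 value of -0.89 ± 0.45 and was not called. Without irradiated shFXR replicate 1 the log2 value was -1.52 and was called lower. SERPINA3 shares 31.8% of its exon bases with AL049839.2 on the same strand, which had 40 counts in all, against 142 for SERPINA3. In irradiated and sham shFXR cells AL049839.2 had 9 and 7 counts, against 28 and 6 for SERPINA3. In irradiated and sham shControl cells AL049839.2 had 12 counts each, against 53 and 55 for SERPINA3.

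Among the 9 genes, 3 were called higher after radiation in shFXR cells and none lower, where 21.0% of all tested genes were called. The 3 were C3, SERPINA1 and SERPINA3, of which SERPINA3 passed the filter only through its shControl counts. In a fit of the shFXR groups alone, 6 of the 9 genes were tested, and only C3 and SERPINA1 were called. Nothing is read from these counts. Irradiated libraries all lay above sham libraries for SAA2, C3 and SERPINA1, and all lay below them for LCN2. How many of all tested genes were separated in this way was not counted, so nothing is read from this. The difference between the responses was 0.20 ± 0.12 for C3, 1.46 ± 0.58 for SERPINA1 and 2.25 ± 0.78 for SERPINA3, and none of these was called. SERPINA3 was called for the difference without irradiated shFXR replicate 3 (log2 2.68). The radiation calls in shFXR cells of SERPINA1 and SERPINA3 were both lost without irradiated shFXR replicate 1 (log2 1.17 and 1.58) and without sham shFXR replicate 3 (log2 1.07 and 1.90). That of SERPINA3 was also lost without sham shFXR replicate 2 (log2 2.20), and that of C3 was kept in all of these.

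Per kilobase of gene model, levels spanned from 138 CPM per kilobase for C3 to 0.0102 for HP in irradiated shFXR cells, and from 152 for C3 to 0.197 for SERPINA3 in irradiated shControl cells. The length covers all exon bases of a gene, 796 for SAA1 and 2227 for SAA2, so the levels per kilobase and their ranks depend on it. C3 ranked first in all 4 groups. SAA1 ranked second in 3 groups, at 9.45 CPM per kilobase in irradiated shFXR, 8.02 in sham shFXR and 76.3 in irradiated shControl cells. In sham shControl cells CP ranked second at 32.1, ahead of SAA1 at 27.1 CPM per kilobase. C3 dominated the summed level of the 9 genes. The sum was 1190 ± 43 CPM in irradiated shFXR, 895 ± 32 CPM in sham shFXR, 1650 ± 180 CPM in irradiated shControl and 1370 ± 155 CPM in sham shControl cells (SD, n = 3 each). Without C3 it was 41.1 ± 2.04 CPM in irradiated shFXR and 39.4 ± 7.92 CPM in sham shFXR cells, against 389 ± 26 CPM in irradiated shControl and 288 ± 86.3 CPM in sham shControl cells. C3 made up 96.5% and 95.6% of the sum in irradiated and sham shFXR cells, against 76.3% and 79.3% in irradiated and sham shControl cells.

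**Figure D3:**
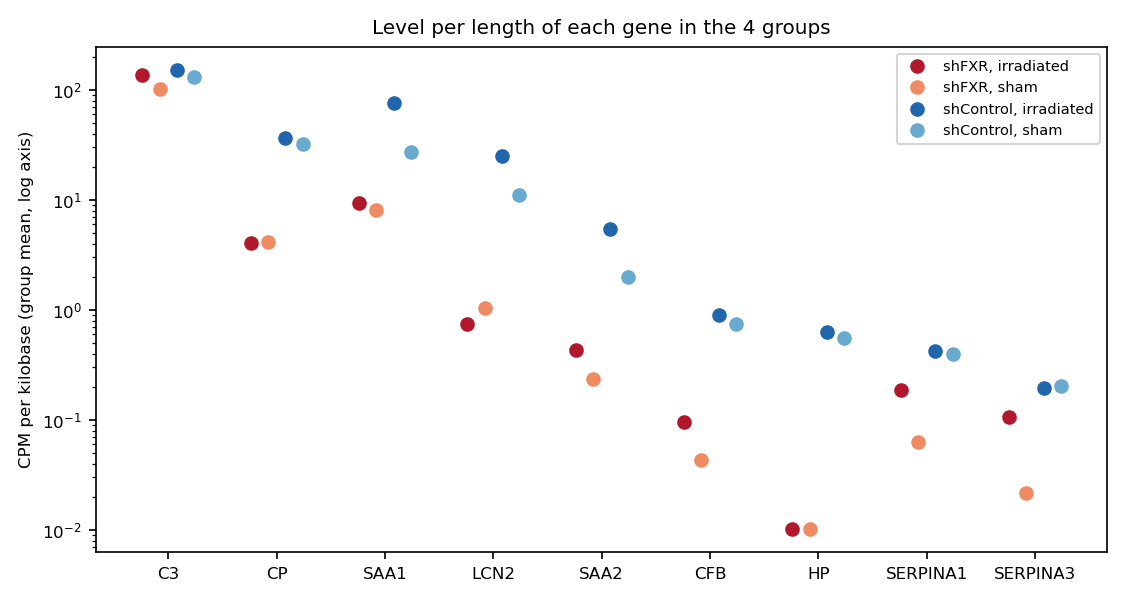
Group mean of each gene as TMM-scaled CPM per kilobase of gene model (log y axis), with irradiated shFXR, sham shFXR, irradiated shControl and sham shControl cells from left to right within each gene. C3 is the highest in every group, from 103 to 152 CPM per kilobase, and HP falls to about 0.0102 CPM per kilobase in shFXR cells.

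Likeness of pattern was measured as the root mean square difference between log2 CPM profiles over the 12 libraries, each centred on its own mean, where 0 means the same profile. The log2 CPM used a prior count of 2, which shrinks the differences of genes with few counts, such as HP, CFB and SERPINA3. The libraries fall into 4 groups, so likeness mainly reflects the group means, and it carries no test. Within the 9 genes the closest pairs were SERPINA1 and SERPINA3 at 0.48, SAA1 and SAA2 at 0.52 and LCN2 and HP at 0.53. The pair farthest apart was HP and C3 at 2.09. Among 10485 other protein-coding genes of at least 5 CPM, PDZK1IP1 was closest to SAA1 at 0.23, followed by RBP4 and GBP3 at 0.44 each. RBP4 was also closest to SAA2 at 0.46. CCL2, which encodes a monocyte chemokine, was closest to LCN2 at 0.43, and the claudin gene CLDN2 was closest to HP at 0.48. LXN was closest to CP at 0.20, SPP1 to CFB at 0.58, HOXB8 to SERPINA1 at 0.43 and LDHD to SERPINA3 at 0.46. C3, whose own profile varied by an SD of only 0.24, had LRP10 at 0.06 as its closest gene.

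Genes of the same pathways that are not among the 9 were then counted, and their adjusted p-values come from the same edgeR fit over all tested genes. These lists were chosen with earlier results of these data known, and that of other acute phase proteins holds the fibrinogen genes FGA, FGB and FGG. Their counts are therefore a description and not independent support. The counts below stand beside 40.8% of all tested genes called in either direction in irradiated and 37.4% in sham cells, and a list count near that share, such as 4 of 11 complement components in irradiated cells, is not a result about the list. Of 24 other acute phase protein genes 10 were tested, and in shFXR cells 7 were lower and 2 higher both after radiation and after sham treatment. The median log2 fold change was -2.05 after radiation and -1.97 after sham treatment. The fibrinogen gamma chain FGG averaged 86.4 ± 1.77 CPM in irradiated shFXR and 560 ± 90.7 CPM in irradiated shControl cells (log2 -2.70 ± 0.15, adjusted p = 2e-11). LBP, which presents bacterial lipopolysaccharide, fell 8.49-fold in sham shFXR against sham shControl cells (log2 -3.09 ± 0.27, adjusted p = 3.2e-08). ITIH2, a heavy chain of the inter-alpha inhibitors, fell 7.25-fold there (adjusted p = 8.5e-08). PTX3, a long pentraxin, rose 2.07-fold in sham and 2.13-fold in irradiated shFXR cells (adjusted p = 0.00049 and 0.00034).

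Of 25 other complement components 11 were tested, with 4 lower in irradiated and 6 lower in sham shFXR cells and none higher. C1R and C1S, the proteases of the classical pathway, fell 3.70-fold and 2.32-fold in sham shFXR cells (log2 -1.89 ± 0.13 and -1.21 ± 0.09; adjusted p = 4.6e-10 and 3.8e-09). C5, the precursor of the anaphylatoxin C5a, averaged 17.2 ± 1.36 CPM in irradiated shFXR against 65.9 ± 4.76 CPM in irradiated shControl cells (log2 -1.93 ± 0.11, adjusted p = 4.9e-11). C1R, C1S and C5 act in the same cascade as C3, whose log2 values are given above.

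Of 17 regulators and receptors of complement 13 were tested, with 5 lower and 3 higher in irradiated and 7 lower and 2 higher in sham shFXR cells. CFI, the protease that cleaves C3b, fell 5.24-fold in irradiated and 7.36-fold in sham shFXR cells (adjusted p = 8.1e-09 and 1.5e-09). C4BPB, the beta chain of C4b-binding protein, went the other way and rose 5.65-fold in sham shFXR cells (adjusted p = 9.2e-07). CFB and CFI were thus both lower in shFXR cells. Of 13 other secreted serpins 6 were tested, and SERPINI1 fell 6.72-fold in irradiated and 5.41-fold in sham shFXR cells (adjusted p = 4.6e-12 and 3.6e-11), while SERPINE2 rose 2.31-fold in irradiated shFXR cells (adjusted p = 8.5e-09). In all, 1 of the 6 serpins was lower and 2 were higher in irradiated shFXR cells, and 3 were lower and 1 higher in sham shFXR cells.

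Among 25 genes of IL6 and IL1 family signalling 23 were tested, with 11 lower and 4 higher in irradiated and 11 lower and 6 higher in sham shFXR cells. IL6 itself averaged 0.813 ± 0.624 and 0.809 ± 0.396 CPM in irradiated and sham shFXR cells, against 5.87 ± 1.06 and 4.33 ± 0.789 CPM in irradiated and sham shControl cells. That was a log2 value of -2.83 ± 0.36 after radiation and -2.41 ± 0.36 after sham treatment (adjusted p = 2.8e-06 and 3e-05). IL1B fell 3.56-fold in irradiated and 5.60-fold in sham shFXR cells (adjusted p = 1.2e-05 and 2e-06), and the receptor subunit IL1RAP rose 2.20-fold and 2.52-fold (adjusted p = 4.1e-06 and 5.1e-07). Of 23 transcription factors known to bind acute phase promoters 22 were tested, with 6 lower and 7 higher in irradiated and 8 lower and 4 higher in sham shFXR cells. CEBPD averaged 73.4 ± 2.97 and 63.6 ± 1.74 CPM in irradiated and sham shFXR cells, against 110 ± 11.4 and 140 ± 19.2 CPM in irradiated and sham shControl cells (adjusted p = 5.2e-05 after radiation and 1.1e-08 after sham treatment). NFKB2 rose 1.94-fold in irradiated and 1.44-fold in sham shFXR cells (adjusted p = 8.8e-08 and 0.00015). STAT3 gave -0.09 ± 0.07 after radiation and -0.02 ± 0.07 after sham treatment, and was not called in either. Of 12 receptors and partners of the 9 proteins 8 were tested, with 2 lower and 4 higher in irradiated and 3 lower and none higher in sham shFXR cells.

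**Figure D4:**
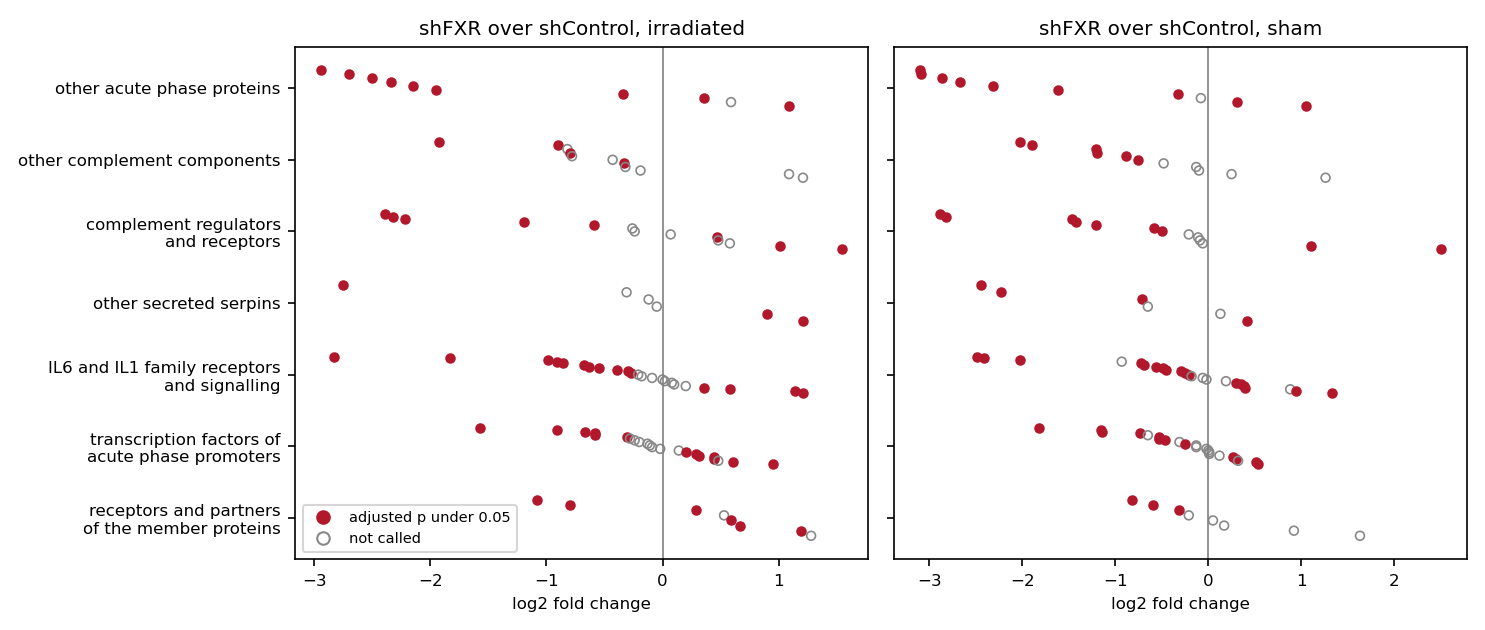
Log2 fold change of shFXR over shControl (x axis) for every tested gene of 7 related gene lists (rows), after radiation on the left and after sham treatment on the right. Filled points are genes called at an adjusted p under 0.05 and open points are not called. Other acute phase proteins have medians of -2.05 on the left and -1.97 on the right, and transcription factors medians of -0.10 and -0.13.

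The same lists were counted for radiation, beside 21.0% of all tested genes called in either direction in shFXR and 10.0% in shControl cells. In shFXR cells it raised 3 of 11 other complement components (C1R, C1RL and C1S) and lowered none, and raised 5 and lowered 1 of 13 regulators and receptors. C1R and C1S rose 1.56-fold and 1.49-fold (adjusted p = 0.00097 and 0.00014), and the chaperone gene CLU 1.64-fold (adjusted p = 4.1e-06). Among the other acute phase proteins LBP rose 2.39-fold (adjusted p = 0.0069) and 1 of 10 fell. In shControl cells radiation called none of the 10 other acute phase proteins, raised 1 of 11 components, C5, by 1.54-fold (adjusted p = 0.00084), and raised 4 of 13 regulators. Of these regulators VTN, which blocks the membrane attack complex, rose by a log2 value of 0.59 ± 0.12 in shFXR cells (adjusted p = 0.0017) and of 0.57 ± 0.11 in shControl cells (adjusted p = 0.0021). Of the 23 signalling genes radiation raised 5 in shFXR and 6 in shControl cells and lowered none, which in shFXR cells is near the share over all tested genes. IL6 gave 0.02 in shFXR and 0.44 in shControl cells on the log2 scale, and neither was called. Radiation raised 2 of the 6 serpins in shFXR and 1 in shControl cells, and 3 of the 8 receptors and partners in shFXR and 1 in shControl cells. Of the 22 transcription factors it raised 3 and lowered 1 in shFXR cells, and raised 1 and lowered 1 in shControl cells. Those counts are near the shares over all tested genes. As with the knockdown, a count near the share is not a result about its list, and this holds for every list here.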

How the data were processed

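RNA from 12 A549 libraries was sequenced after poly-T bead selection and random-hexamer cDNA synthesis, per the labels' protocols. The authors deposited 1 table of raw counts per gene and library. Per the submitters' processing notes, the build was hg38 and DESeq2 1.20.0 was used, with no step named. The aligner, counter and strand setting: not given in the sources used here. All 58735 identifiers and coordinates equal those of GENCODE 29.

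Of these genes, 33302 had a count and 16053 passed filterByExpr (minimum count 10, minimum total count 15). Counts were TMM-scaled, and edgeR's quasi-likelihood model was fitted with 1 coefficient per group over all 12 libraries (8 residual degrees of freedom). The contrasts were radiation in shFXR and in shControl cells, knockdown in irradiated and in sham cells, and the difference of both radiation responses. Genes were called at a Benjamini-Hochberg adjusted p under 0.05 over all tested genes, and SE is the log2 fold change over the square root of F. The model was tested on simulated counts. The 9 genes, the related lists and the markers were chosen with earlier results of these data known. Named were the 9 genes, NR1H4, exon-sharing genes, from each list and comparison up to 3 called genes with the largest change (mean of 1 CPM or more) plus 1 in the other direction, some fixed IL6 pathway genes and factors, and the 3 nearest profiles of each gene. Which related genes of that rule were described was further chosen after their values were seen, and the single values of some list genes are not reported here. The design text calls the libraries biological replicates without saying whether cultures were separate, so p-values measure the spread between these libraries. Replicates differed beyond counting noise (chi-square per degree of freedom 2.54 to 25.4), so none was counted as a duplicate. Alternatives were other size factors, filters, DESeq2, only the groups compared, a replicate block and leaving out each library. The versions were edgeR 4.0.16 and DESeq2 1.42.0 under R 4.3.3, with limma 3.58.1. Sequences are from RefSeq (GRCh38.p14) and GENCODE 29.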

Additional observations from a re-analysis of the deposited data

Results flagged for a closer look

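These genes were picked out because their radiation response differed between the lines by a test of the difference itself (shFXR minus shControl response, log2 scale, edgeR's quasi-likelihood test adjusted over all tested genes). For SAA1 the difference was -1.25 and for LCN2 -1.66; the values of both helped to choose them and are a description. In each, the irradiated libraries all lay above the sham libraries in shControl cells. Among complement genes, the difference was 0.99 for C1R (adjusted p = 0.0014), -0.73 for C5 (adjusted p = 0.0055), -0.75 for C4BPA (adjusted p = 0.014) and 0.68 for CLU (adjusted p = 0.0015). It was 1.08 for SERPINE2 (adjusted p = 0.00014), 0.69 for FOXA2 (adjusted p = 0.0032) and 0.56 for CEBPD (adjusted p = 0.0095). Among receptors, it was 1.18 for SLC22A17, an LCN2 receptor (adjusted p = 0.0028), and 0.87 for LRP1, a scavenger receptor for serpin-protease complexes (adjusted p = 0.0096).

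The other differences lost their call when some 1 library was left out. SERPINA5 had 1.92 (adjusted p = 0.011), and 1.59 without irradiated shFXR replicate 3. C4BPB had -1.48 (adjusted p = 0.016), and -1.19 without irradiated shControl replicate 3. C1RL had 0.54 (adjusted p = 0.015), and 0.46 without irradiated shControl replicate 3 or 0.44 without sham shFXR replicate 3. PTPN11 had -0.51 (adjusted p = 0.023), and -0.46 without irradiated shControl replicate 3 or without irradiated shFXR replicate 3. RELB had 0.60 (adjusted p = 0.022), and 0.41 to 0.60 without irradiated shControl replicate 2 or 3, sham shControl replicate 1, irradiated shFXR replicate 2 or 3, or sham shFXR replicate 3. FGB had -0.53 (adjusted p = 0.034), and -0.57 to -0.41 without irradiated shControl replicate 1 or 3, sham shControl replicate 3, any irradiated shFXR replicate, or sham shFXR replicate 1 or 3. LBP had 1.13 (adjusted p = 0.048), and 0.81 to 1.15 without irradiated shControl replicate 2 or 3, sham shControl replicate 1, irradiated shFXR replicate 2 or 3, or sham shFXR replicate 2 or 3. IL6R had -0.57 (adjusted p = 0.041), and -0.61 to -0.45 without irradiated shControl replicate 2 or 3, sham shControl replicate 1, any irradiated shFXR replicate, or sham shFXR replicate 1 or 3. TLR4 had -0.49 (adjusted p = 0.04), and -0.51 to -0.37 without irradiated shControl replicate 2 or 3, any irradiated shFXR replicate, or sham shFXR replicate 1 or 2. OSMR had 0.41 (adjusted p = 0.043), and 0.33 to 0.44 without irradiated shControl replicate 2 or 3, sham shControl replicate 1 or 3, or any shFXR replicate.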

How the results depend on the processing

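The log2 values of the 9 genes moved by less than the pooled SD between replicates in 800 alternative values and by more in 18, which were of HP, CFB or SERPINA3, which had few counts in shFXR cells. Using only the groups compared gave 5063 instead of 3379 genes called for radiation in shFXR cells. In the count of genes called for radiation in shControl cells, it gave 551 instead of 1611, and the causes were not tested. With 1 library left out, that count was 562 to 1932 (562 without irradiated shControl replicate 2, 845 without irradiated shControl replicate 3). For radiation in shFXR cells it was 2106 to 4254, against 3379, with 2226 without irradiated shFXR replicate 1, 2106 without irradiated shFXR replicate 3, 2219 without sham shFXR replicate 1 and 2127 without sham shFXR replicate 3. For the difference it was 1162 to 3254, against 2405, with 1243 without irradiated shFXR replicate 3, 1595 without sham shFXR replicate 1, 1445 without sham shFXR replicate 3, 1571 without irradiated shControl replicate 2 and 1162 without irradiated shControl replicate 3. The knockdown counts stayed within 1.5 times, at 5000 to 6252 in sham and 5394 to 7283 in irradiated cells. In the fit of the shFXR groups alone, 6 of the 9 genes were tested and 2 called for radiation.

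Replicate numbers did not pair the libraries: 2 of 18 same-numbered pairs had deviations correlated above 0.1, and 3 of 12 libraries correlated best with their own number. With the replicate block the counts were 3236 for radiation in shFXR cells, 1553 for radiation in shControl cells, 5889 and 6463 for the knockdown in sham and irradiated cells, and 2358 for the difference, in which SERPINA3 was then called (log2 2.26), as it was with no filter (log2 2.23). Of the related genes' values, 198 lost and 19 gained a call under an alternative, and 2599 kept their call status. Depth limits SAA2, HP, CFB, SERPINA1 and SERPINA3, whose shFXR libraries held 0 to 24 counts.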
